A study of Mus musculus with 2 samples.

Results

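Kcnj8, Abcc9, Rgs4, Rgs5, Pdgfrb, Cspg4 and Higd1b are 7 genes widely used as markers of pericytes. They were taken by symbol from the deposited gene tables, where they are 7 of 43346 genes, and all 7 were found. The tables come from total RNA-seq of whole stomachs of B6NCrl mouse embryos at 16.5 days, with both sexes pooled, and they hold 1 group of 2 biological replicates. The pool of replicate 2 came from 41 embryos, the number behind replicate 1 is not given, and each library started from 10 ng of RNA longer than 200 nt. The embryos are described as healthy, and no treatment, allele or second tissue is part of the design. With 1 group there is no condition to compare, so the data give the level of each gene in the stomach and how far the pools differed.

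Pericytes are the cells that wrap the endothelial tube of capillaries, and vascular smooth muscle wraps the larger vessels; together they are called mural cells. Endothelial cells recruit them by releasing PDGF-BB, the dimer of Pdgfb, which acts on the receptor Pdgfrb on the mural cell. In the gut wall they lie among fibroblasts and visceral smooth muscle, which make up much of the tissue. None of the 7 genes is made by pericytes alone: Pdgfrb is also found on fibroblasts, Rgs4 in neurons, Cspg4 on other progenitor cells, and Abcc9 in striated muscle. In bulk tissue, a lower number of cells of a type and less RNA per cell cannot be told apart.

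Genes received 43195887 expected counts in replicate 1 and 25151165 in replicate 2, and 3 counts, the limit that a count of 0 allows, correspond to 0.0695 and 0.119 CPM (counts scaled to library size). All 10 of 10 listed genes of stomach mesenchyme and gastric epithelium were detected, from Muc5ac at 2.00 and 2.68 TPM to Tff1 at 337 and 531 TPM. TPM scales counts to gene length and library size, and a gene counted as detected at 1 TPM or more in both libraries, which 35.5% of all genes reached. On TMM-scaled counts, explained with the ratios below, 8 of these 10 were higher in replicate 2, and Gkn1 (log2 ratio of replicate 1 over replicate 2 -1.76) and Gkn2 (-1.64) were more than 2-fold higher there, against 2.34% of all genes tested; Barx1 was the highest in the other direction, at 0.30. The pools also differed in skeletal muscle RNA: the 16 listed skeletal muscle genes summed to 2858 TPM in replicate 1 and 228 TPM in replicate 2, and all 16 were more than 2-fold higher in replicate 1, against 1.24% of all genes tested. This list, like the others, was chosen with earlier results of these data known, so its share is a description only.

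Sequence shows how one member, Abcc9, can encode alternative proteins. Abcc9 encodes SUR2, the regulatory subunit of an ATP-sensitive potassium channel, and its transcripts end in one of a pair of alternative last coding exons. The form with the upstream exon is known as SUR2A, the form of heart and skeletal muscle. The form that skips it is known as SUR2B, the form of smooth muscle, in vessels and elsewhere. The coding ends are shown because the transcript tables separate these forms. Both lie on the minus strand of GRCm38, are 135 bases long without the stop codon, and run 5′ to 3′. Capitals mark bases identical, position by position and without gaps, with the same stretch of Abcc8, the SUR1 gene.
Abcc9-203, chr6:142590369-142590503: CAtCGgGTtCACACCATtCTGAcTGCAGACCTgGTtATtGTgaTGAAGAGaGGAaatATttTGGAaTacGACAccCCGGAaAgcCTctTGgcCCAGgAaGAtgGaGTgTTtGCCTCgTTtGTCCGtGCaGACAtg
Abcc9-204, chr6:142594008-142594142: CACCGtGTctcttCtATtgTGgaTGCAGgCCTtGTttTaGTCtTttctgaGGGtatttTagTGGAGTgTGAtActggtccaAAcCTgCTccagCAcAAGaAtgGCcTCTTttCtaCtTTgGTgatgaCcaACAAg
The end of Abcc9-203 shared 94 of 135 bases (69.6%) with Abcc8, the end of Abcc9-204 shared 70 of 135 (51.9%), and the Abcc9 ends shared 69 of 135 (51.1%) with each other. The exon that Abcc9-203 skips spans chr6:142593967-142594142 and is 176 bases long.

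The level of the members ran from Kcnj8 at 50.5 TPM to Higd1b at 1.11 TPM. The order was Kcnj8, Pdgfrb, Rgs5, Cspg4, Abcc9, Rgs4 and Higd1b, the same in both libraries. All 7 were detected in both libraries, and their median was 13.6 ± 1.42 TPM (SD, n = 2), beside a median of 15.4 TPM over the 15372 detected genes. Of the 6 gaps between neighbours in this order, 5 exceeded their own SD between libraries. The exception was the gap from Rgs5 to Cspg4, 0.27 ± 0.29 on the log2(TPM + 0.1) scale.

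**Figure D1:**
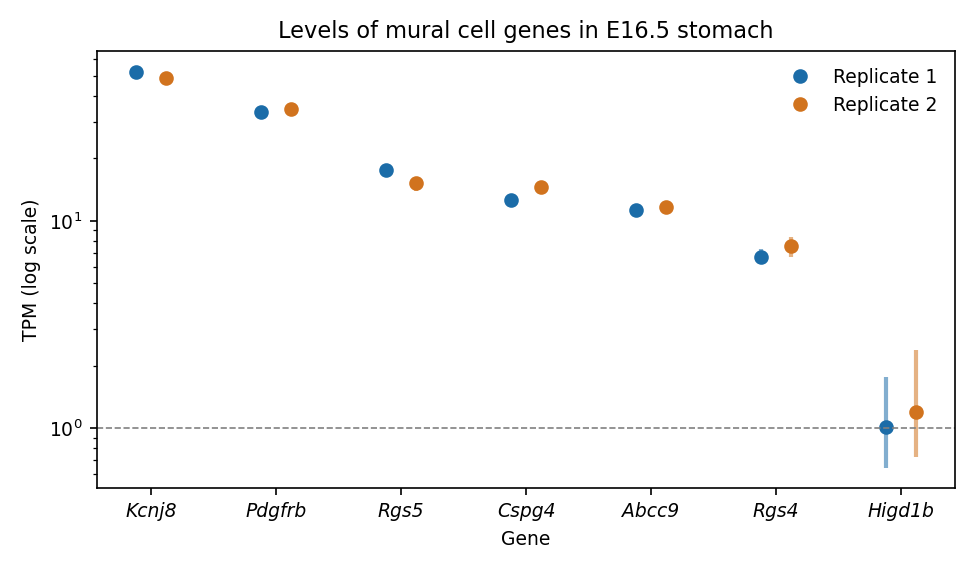
TPM (log axis) of the 7 genes in each library, ordered by mean; points are the deposited values, vertical bars the authors' own interval of each value, and the dashed line 1 TPM. Kcnj8 lies highest at 52.2 and 48.8 TPM, and the bars are wide only for Higd1b.

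Kcnj8 encodes Kir6.1, the pore of the vascular ATP-sensitive potassium channel, and it was the highest member. Its level was 52.2 TPM in replicate 1 and 48.8 in replicate 2 (50.5 ± 2.46, SD, n = 2), from 3349 and 1748 expected counts, above 79.0% of detected genes. The gene lies at chr6:142564837-142571614 on the minus strand. Among the 15 listed inwardly rectifying potassium channel genes, Kcnj8 ranked first in both libraries and carried 79.8% and 77.1% of their summed TPM. Only 2 others of these 15 were detected, Kcnj15 at 5.05 and 6.26 TPM and Kcnj13 at 4.05 and 4.55 TPM. Kcnj11, which encodes the Kir6.2 pore of pancreatic beta cells and muscle, stood at 0.70 and 0.65 TPM, from 23 and 12 expected counts. The pore RNA of this channel class was thus 74.6 and 75.0 times as high for Kcnj8, ratios that rest on these few Kcnj11 counts.

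Abcc9, the partner subunit of Kir6.1, was at 11.3 and 11.7 TPM (11.5 ± 0.304, SD, n = 2), from 2513 and 1459 expected counts. The libraries were close, and Kcnj8 stood 4.63 and 4.17 times above it. Abcc8, which encodes the alternative subunit SUR1 of neurons and beta cells, was at 4.41 TPM in both libraries, 2.56 and 2.65 times below Abcc9. Abcc8 stood 6.30 and 6.78 times above Kcnj11, whose level rested on 23 and 12 expected counts. The regulatory subunit thus exceeded the pore for that pair, and the pore exceeded the subunit for Kcnj8 and Abcc9. Beta cell RNA was present in the same libraries, with Ins2 at 340.0 and 293 TPM; its part in the Abcc8 level was not tested. Smooth muscle RNA was abundant in both libraries: all 10 listed smooth muscle genes were detected with a median of 256 TPM. The part of visceral smooth muscle in the levels of Kcnj8 and Abcc9 was not tested.

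The transcript tables assigned Abcc9 almost wholly to the SUR2B-type end. Abcc9-203 held 97.4% of the gene's TPM in replicate 1 and 100% in replicate 2 (98.7 ± 1.82, SD, n = 2). The 3 transcripts with the upstream exon held the rest: Abcc9-204 received 64.81 expected counts in replicate 1 and 0 in replicate 2, and Abcc9-201 and Abcc9-202 received 0 in both. The authors' intervals for Abcc9-204 overlapped, from 0.0412 to 0.612 TPM in replicate 1 and up to 0.502 TPM in replicate 2. On the posterior mean TPM, a second deposited estimate that does not set weak transcripts to 0, the upstream-exon transcripts together held 5.26% and 4.76%. The skeletal muscle list, 2858 against 228 TPM in the same libraries, moved in the direction of the Abcc9-204 counts; its part in them was not tested.

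Kcnj8 and Abcc9 are neighbours on chromosome 6, in the same orientation, with 16247 bases between them and Abcc9 upstream. Abcc9 spans chr6:142587862-142702315. The next protein-coding genes outward, Ldhb and Cmas, stood at 123 ± 1.61 and 71.4 ± 2.16 TPM (SD, n = 2), both above Kcnj8. An antisense gene, 5330439B14Rik, overlaps Abcc9 and was at 0.08 and 0.05 TPM; whether counting used strand is not given in the sources used here.

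**Figure D2:**
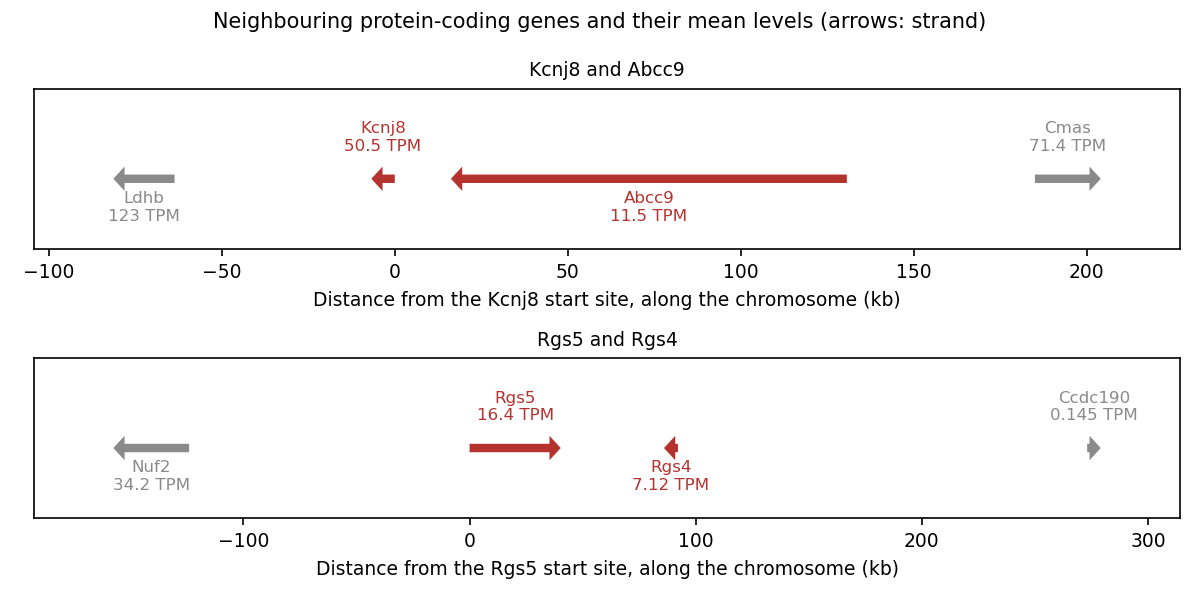
Distance along the chromosome (kb) from the Kcnj8 start site (upper panel) and the Rgs5 start site (lower panel), with arrows for each gene's extent and strand and the mean TPM beside it. Members are red and the next protein-coding genes grey; Kcnj8 and Abcc9 point the same way, Rgs5 and Rgs4 point at each other.

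Pdgfrb encodes the receptor through which PDGF-BB recruits pericytes, and it was the next highest member. It was at 33.6 TPM in replicate 1 and 34.7 in replicate 2 (34.1 ± 0.764, SD, n = 2), from 5474 and 3159 expected counts, the most reads of any member. It lies at chr18:61045150-61085061 on the plus strand, with Csf1r, the receptor of macrophage growth factors, 15536 bases further along in the same orientation at 23.6 ± 1.23 TPM and Cdx1 8950 bases before it at 2.84 ± 0.120 TPM. The transcript tables gave all of its expected counts to Pdgfrb-201.

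All 6 listed PDGF ligands and receptors were detected, and Pdgfrb ranked after the ligand Pdgfa, at 39.2 and 44.0 TPM. Pdgfra, the receptor of fibroblasts and other mesenchyme, was at 29.1 and 30.3 TPM, and Pdgfrb stood 1.15 and 1.14 times above it. Pdgfb, the endothelial ligand of Pdgfrb, was the lowest of the 6 at 2.57 and 2.31 TPM. Pdgfrb RNA thus stood 13.07 and 15.01 times above Pdgfb RNA, while Pdgfa stood 15.3 and 19.1 times above Pdgfb. The remaining ligands, Pdgfc (12.6 and 13.6 TPM) and Pdgfd (10.2 and 8.08 TPM), lay between. Fibroblast RNA was abundant in both libraries: all 10 listed fibroblast genes were detected with a median of 337 TPM, and its part in the Pdgfrb level was not tested.

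Rgs5 and Rgs4 encode short regulators of G-protein signalling of the R4 group, which speed the shut-off of Gq and Gi signals; Rgs5 is the classic pericyte marker among them. Rgs5 was at 17.6 TPM in replicate 1 and 15.3 in replicate 2 (16.4 ± 1.63, SD, n = 2), from 2115 and 1048 expected counts. Rgs4 was at 6.68 and 7.55 TPM (7.12 ± 0.615, SD, n = 2), from 583 and 361 expected counts. Rgs5 was higher in replicate 1 and Rgs4 in replicate 2, and Rgs5 stood 2.63 and 2.02 times above Rgs4.

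Within the R4 group of 10 genes, Rgs5 ranked after Rgs2 and Rgs3 and Rgs4 followed it, in both libraries. Rgs2, a regulator of Gq signalling in smooth muscle and many other cells, was at 69.0 and 67.0 TPM, 3.92 and 4.38 times above Rgs5, and Rgs3 was at 44.5 and 42.9 TPM. Rgs16 (4.06 and 3.63 TPM) and Rgs18 (2.60 and 1.51 TPM) were the other detected members of the group. Rgs8, Rgs1, Rgs13 and Rgs21 were below 1 TPM, and Rgs21 was listed at 0 in both. Over all 21 listed Rgs genes, Rgs5 ranked the 7th and Rgs4 the 8th, and Rgs5 held 6.34% and 5.53% of their summed TPM. All 10 listed enteric neuron genes were detected, with summed levels of 240.4 and 237 TPM; their part in the Rgs4 level was not tested.

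The Rgs5 and Rgs4 genes face each other on chromosome 1, at chr1:169655501-169695813 on the plus strand and chr1:169741477-169747642 on the minus strand, with 45663 bases between their ends. The next protein-coding genes outward were Nuf2, a kinetochore gene, at 34.2 ± 0.601 TPM, and Ccdc190 at 0.06 and 0.23 TPM. The last 120 bases before each annotated start are shown, 5′ to 3′ on the gene's own strand (RefSeq, GRCm38.p6), because both hold the same short stretch at nearly the same place. Capitals mark ATTGG, which is CCAAT on the opposite strand, and TATAAA.
Rgs5, chr1:169655381-169655500: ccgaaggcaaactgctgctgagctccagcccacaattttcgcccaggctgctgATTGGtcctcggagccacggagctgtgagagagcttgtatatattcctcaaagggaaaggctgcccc
Rgs4, chr1:169747643-169747762: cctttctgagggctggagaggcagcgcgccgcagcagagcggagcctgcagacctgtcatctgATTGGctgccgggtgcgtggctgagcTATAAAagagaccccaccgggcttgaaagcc
The 8 letters CTGATTGG, chosen after the sequences were seen and containing the reverse complement of CCAAT, began 70 bases before the Rgs5 start and 60 bases before the Rgs4 start. Searched on both strands of windows from 250 bases before to 50 after the start, they occurred in 4.09% of 32817 RefSeq promoters, and CCAAT in 37.4%. Rgs4 also held TATAAA, 31 bases before its start, as 13.6% of promoters did somewhere in the window. A match is a description of letters.

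For 5 of the 7 members the RefSeq table held a promoter. Pdgfrb and Higd1b had none there. GGGCGG, the GC box, was found for Abcc9 and Cspg4 (35.6% of all promoters), and TGGGAA, a core of RBPJ sites, for Kcnj8 and Abcc9 (25.6%). TGTTTAC (3.65% of all promoters), TGACGTCA (1.79%) and the CArG box (1.63%) were found in none of the 5 windows.

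The transcript tables gave Rgs4 a split that differed between libraries. Rgs4-201 held all 583 expected counts in replicate 1, and in replicate 2 Rgs4-202 received 50.36 counts, leaving Rgs4-201 with 84.3% of the gene's TPM. The authors' intervals for Rgs4-202 overlapped, reaching 0.900 TPM in replicate 1 and spanning 0.0195 to 3.003 TPM in replicate 2. Rgs5-201 held 97.7% and 100% of the Rgs5 TPM.

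Cspg4 encodes NG2, a transmembrane chondroitin sulphate proteoglycan on the surface of pericytes. It was at 12.6 TPM in replicate 1 and 14.6 in replicate 2 (13.6 ± 1.42, SD, n = 2), from 3081 and 1997 expected counts, and it was the median member. Of 6 listed chondroitin sulphate proteoglycan genes it ranked after Vcan, a matrix proteoglycan of embryonic connective tissue, at 23.2 and 23.6 TPM, 1.84 and 1.61 times above Cspg4. Cspg5, at 1.28 and 1.56 TPM, was the other detected gene. Ncan (0.78 and 1.14 TPM), Bcan (0.26 and 0.43 TPM) and Acan (0.33 and 0.21 TPM), the proteoglycans of brain and cartilage matrix, missed the threshold in at least 1 library. Cspg4 lies at chr9:56865033-56899870 on the plus strand, 353 bases from the start of the opposite-strand gene Odf3l1, at 1.02 ± 0.0141 TPM, and 17322 bases from Snx33, at 10.7 ± 0.368 TPM.

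Higd1b encodes a mitochondrial protein of the hypoxia-induced gene domain family and marks pericytes in adult organs. It was at 1.01 TPM in replicate 1 and 1.20 in replicate 2 (1.11 ± 0.134, SD, n = 2), from 15 and 10 expected counts on a gene of 584 bases. Both values lay just above the detection threshold, only 0.364% of detected genes were lower, and the authors' intervals of 0.643 to 1.76 and 0.728 to 2.39 TPM reached below it. Higd1a, the broadly expressed relative, was at 103 and 109 TPM, 102 and 91.2 times above Higd1b, and Higd2a was at 171 and 153 TPM. Higd1c was below the threshold at 0.08 and 0.13 TPM. The gene lies at chr11:102835849-102838040 on the plus strand, tail to tail with Eftud2, a splicing factor gene, whose 3′ end lies 432 bases on and which stood at 117 ± 6.91 TPM, and 16148 bases from Gjc1, at 28.2 ± 4.19 TPM. Its 15 and 10 counts do not separate its 3 transcripts: Higd1b-202 led with 63.4% and 64.2% of TPM, and with 37.9% and 37.7% on the posterior mean.

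**Figure D3:**
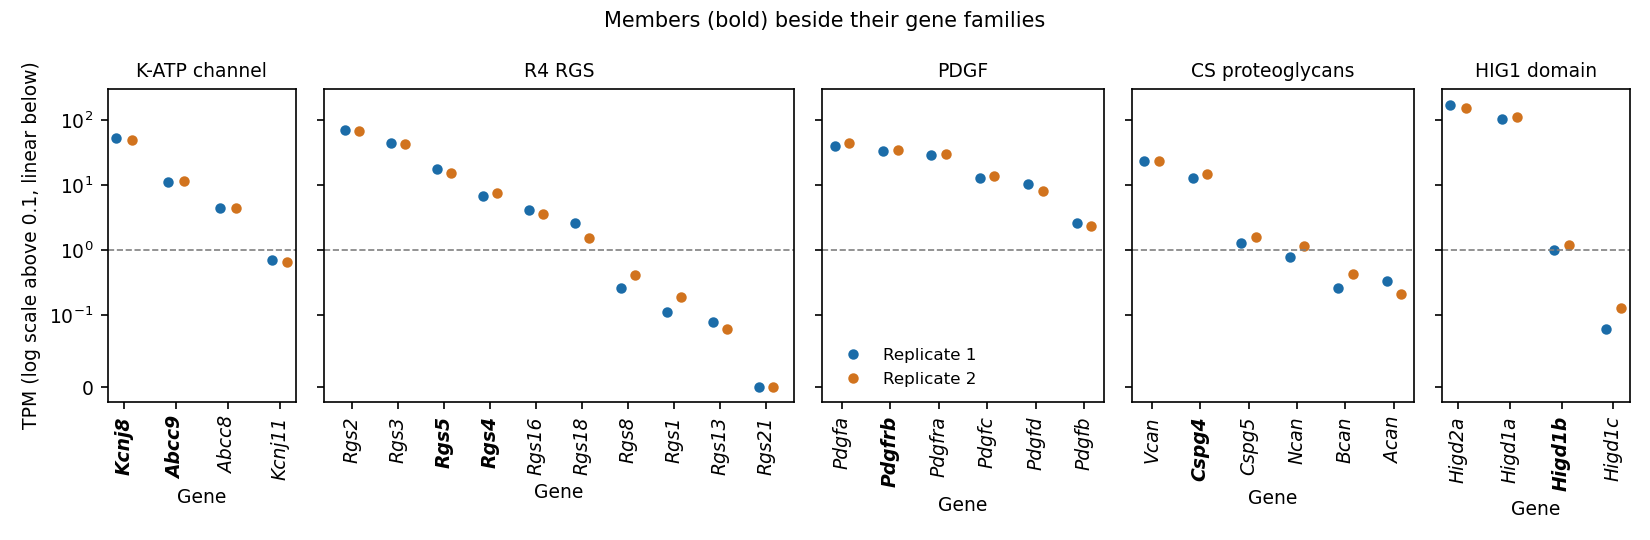
TPM (log above 0.1, linear below, dashed line at 1 TPM) of the members, in bold, and their listed relatives in each library, 1 panel per family. Kcnj8, Pdgfrb and Cspg4 lie high in their families, Rgs5 and Rgs4 in the upper middle, and Higd1b near the line.

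Further genes of mural cells, from a list of 21, were detected in 18 of 21 cases with a median of 12.6 ± 0.0636 TPM (SD, n = 2). The median of the 7 members was above it by 0.11 ± 0.14 on the log2(TPM + 0.1) scale, a gap within its spread between libraries. Ndufa4l2, a mitochondrial complex gene prominent in brain pericytes, led at 142 and 176 TPM, followed by Mcam (CD146), at 43.2 and 46.4 TPM, and Gucy1b1, a subunit of the nitric oxide receptor, at 43.3 and 44.2 TPM. Atp13a5, a marker of brain pericytes, was lowest, at 0.01 and 0.03 TPM from 1 and 2 expected counts. The transcription factor genes Foxc1 (0.14 and 0.17 TPM) and Tbx18 (0.35 and 0.31 TPM) were the others below the threshold; they and Atp13a5 are named because they are the 3 that were not detected.

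Of 18 listed genes through which endothelial and mural cells signal to each other, 17 were detected, and the median of the 7 members minus theirs was 0.08 ± 0.02 on the same log2 scale. Cxcl12, a chemokine of stromal cells, was highest at 145 and 141 TPM, followed by the TGF-beta co-receptor Eng, at 52.3 and 53.4 TPM, and the receptor Tgfbr2, at 32.2 and 35.1 TPM. Tgfb1, the ligand, was lowest, at 1.43 and 0.96 TPM, and it was the 1 gene of the list below the threshold.

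The 12 listed endothelial genes were all detected, from Flt1 at 7.63 and 7.02 TPM to Egfl7 at 93.9 and 101 TPM, with a median of 21.6 ± 0.223 TPM. The median of the members lay below it, with a log2 difference of -0.67 ± 0.16 (SD, n = 2). The difference was -4.22 ± 0.04 from the median of the 10 smooth muscle genes, led by Acta2 at 2117 and 2612 TPM. From the median of the 10 fibroblast genes, led by Col3a1 at 2405 and 2771 TPM, it was -4.61 ± 0.05. The genes of both lists are also made outside vessels, in visceral muscle and connective tissue.

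The listed genes nearest in level to the highest and the median member were found over 2 libraries, on log2(TPM + 0.1), among 157 candidates from the other lists. For Kcnj8 they were Stmn2, a neuronal gene (distance 0.019), Eng (0.13) and the endothelial gene Esam (0.14). For Cspg4 they were Gja4, a connexin of arterial vessels (0.054), Pdgfc (0.11) and the endothelial receptor Tek (0.13).

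Between the pools the members differed little, and so did most genes: 96.4% of all genes tested were within 2-fold. The ratio of replicate 1 to replicate 2 was taken on counts scaled by TMM, a scaling that centres most genes, and each interval below is a 95% exact binomial one that covers counting error only. With 1 library on each side the differences have no replicate check and no test. All 7 members passed the low-count filter, and 0 of 7 were past 2-fold, against 3.58% of the 17763 genes that passed it (1.24% higher in replicate 1 and 2.34% higher in replicate 2). Scaled by spike-in totals, again 0 of 7 were past 2-fold, against 8.03% of genes. That scaling moved the median gene by -0.57, and the log2 ratios of Kcnj8 and Rgs5 changed sign, to -0.44 and -0.37. It shifts all genes nearly alike, so each member's side of the median gene was nearly fixed in advance and is not a check. On TMM-scaled counts, Rgs5 had the largest log2 ratio in size of the members, 0.21 (0.10 to 0.32), and 65.2% of all genes had one no larger. The median log2 ratio of the members was -0.02, and over all genes tested it was 0.002.

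On TMM-scaled counts, Kcnj8 and Rgs5 were higher in replicate 1 and the other 5 members were lower. The log2 ratio of Kcnj8 was 0.13 (0.05 to 0.22). For Cspg4 it was -0.18 (-0.26 to -0.10), so Cspg4 and Rgs5 differed in opposite directions by more than counting error. The intervals of these 3 excluded equality, 3 of 7, a share near the 39.4% of all genes tested that did so.

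The intervals of the other 4 included equality. Pdgfrb, with the most counts, had a log2 ratio of -0.01 (-0.07 to 0.05) and Abcc9 one of -0.02 (-0.11 to 0.08). Rgs4 had -0.11 (-0.30 to 0.08). For Higd1b, at -0.19 (-1.47 to 1.10), a difference of up to 2-fold either way was not detectable at this depth.

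**Figure D4:**
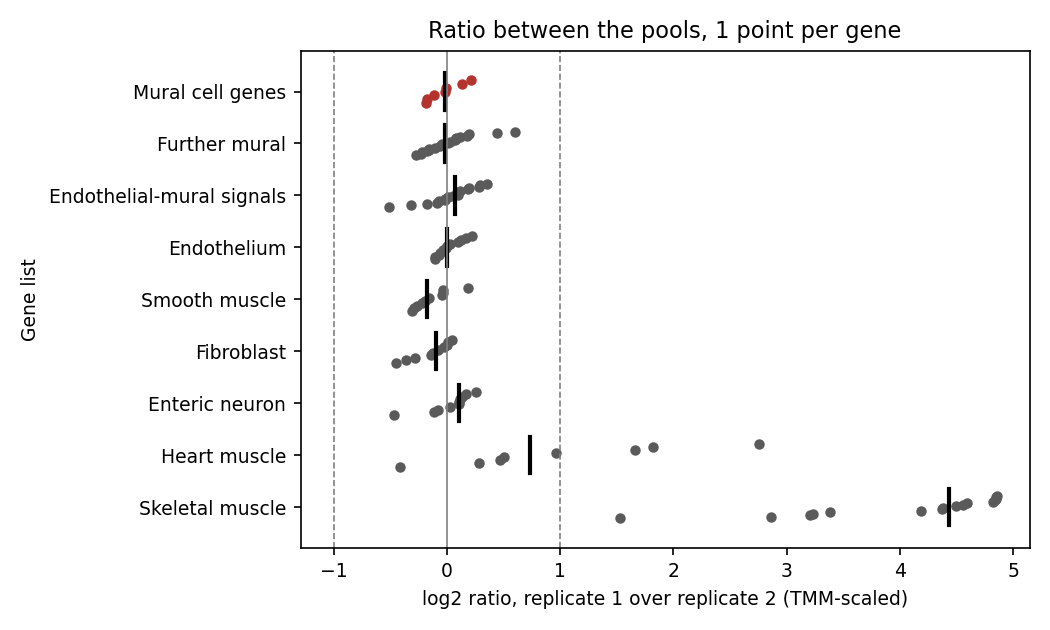
log2 ratio of replicate 1 over replicate 2 on TMM-scaled counts, 1 point per gene that passed the low-count filter, with a black tick at each list's median and dashed lines at 2-fold. The 7 mural cell genes lie between -0.19 and 0.21, and the skeletal muscle genes have a median of 4.44.

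The other mural and vessel lists also lay within 2-fold, as did 96.4% of all genes tested. In lists of this size, counts of 0 lie near that background. Of the 20 further mural genes that passed the filter, 0 were past 2-fold, their median was -0.02, and their extremes were Ndufa4l2 at -0.27 and Tbx18 at 0.60. Of the 18 signalling genes 0 were past it, with Hbegf, a growth factor gene, at -0.51 and Angpt2, the angiopoietin of remodelling vessels, at 0.35. Of the 12 endothelial genes 0 were past it, from Kdr at -0.11 to Cldn5 at 0.22. The smooth muscle list had a median of -0.17 and the fibroblast list one of -0.10, and neither held a gene past 2-fold.

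The skeletal muscle list had a median log2 ratio of 4.44. All members lay within 0.21 of equality on the log2 scale, as did 65.2% of all genes tested. Abcc9, which is also found in striated muscle, was at -0.02, and Kcnj8 was at 0.13. In the heart muscle list, 3 of the 8 genes past the filter were more than 2-fold higher in replicate 1, against 1.24% of all genes tested. Actc1 led them at 2.75. Of the 10 genes of that list 7 were detected, with Actc1 (396 and 60.1 TPM), Tnnt2 (39.3 and 34.1 TPM) and Myl7 (26.3 and 36.1 TPM) highest and Nppb lowest, at 0.05 and 0 TPM; Myl7 had the lowest log2 ratio, -0.42. The part of striated muscle RNA in the levels of Kcnj8 and Abcc9 was not tested.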

How the data were processed

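Gene and transcript tables of 2 libraries were analysed, with replicate numbers from the labels. The genome was mm10 with annotation M4, per the deposited text files. No aligner or quantifier is given in the sources used here. Expected counts, per the file headers, are the authors' estimated reads, not whole because shared reads are split. The deposited TPM is corrected for length and includes spike-ins in its total; posterior mean TPM and an interval of unstated level stand beside it. The deposited FPKM is corrected for length and depth. Transcript shares in percent were deposited by the authors too; shares printed here were recomputed from TPM, except posterior ones.

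The members and all lists were chosen with earlier results of these data known. GENCODE M21 (GRCm38) gave positions, and symbols for 42350 of 43346 Ensembl genes. Higd2b was not matched. Transcripts were matched by identifier without version, and some differ in length between M4 and M21. Among them are Abcc9-203, 7362 bases as deposited and 7306 in M21, and Abcc9-202, 7538 and 6213. The Abcc9 coding ends were read from M21, so assigning the deposited transcript levels to these ends joins both releases. Spike-ins (3.08% and 2.05% of expected counts) and 26249 other features stayed out of library sizes.

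Expected counts were rounded, filtered with filterByExpr and scaled by TMM (factors 1.01 and 0.992) in edgeR 4.0.16 (R 4.3.3), and log2 ratios used a prior count of 2. edgeR's common dispersion corresponds to a biological coefficient of variation of 17.3%. With 2 libraries of 1 group no test was run; the smallest two-sided exact sign-flip p would be 0.5. On simulated counts the ratio step was tested before use. Differences of levels used a pseudocount of 0.1 TPM. Python 3.11.15, pandas 2.3.3, scipy 1.17.1 and matplotlib 3.10.9 were used. Named genes are all members, their families, neighbours, and of other lists the 3 highest, the lowest and the extremes of the ratio; exceptions are marked. Alternatives were DESeq2 1.42.0 size factors, spike-in totals, unscaled TPM and FPKM, a prior count of 0.5, no filter, other detection thresholds, posterior means and each library alone.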

Additional observations from a re-analysis of the deposited data

How the results depend on the processing

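Of 119 alternative values of the members' levels, counts, ratios and transcript shares, 103 stayed within their limits and 16 moved. For levels and transcript shares the limit was the SD of the same 2 libraries. A value from 1 library alone could not exceed it, so the 103 include outcomes fixed in advance. A change of sign was not labelled apart from other moves. The median level was 9.24 on FPKM. With spike-in totals in place of TMM the median gene shifted by -0.57 (log2) and the members' median ratio was -0.60. The log2 ratios of Kcnj8 and Rgs5 changed sign there, from 0.13 to -0.44 and from 0.21 to -0.37. Relative to the median gene, each of the 7 kept its sign under all 6 settings. Scalings that apply 1 factor per library shift all genes nearly alike, so for them this was nearly fixed in advance. Genes past 2-fold numbered 636 in the main analysis, 1427 with spike-in totals (8.03%) and 2724 without a filter; 0 members passed in each. At 5 TPM, or on FPKM, 6 of 7 members were detected, Higd1b being lost. Its leading transcript's share was 52.2% on expected counts and 37.8% on posterior means. Depth limits Higd1b most, with 15 and 10 counts. No paired analysis was possible because there is 1 group.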
